A study of Mus musculus with 24 samples.

Results

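The endoplasmic reticulum (ER) folds secreted and membrane proteins, and 41 mouse genes of its quality control were examined in bone marrow–derived macrophages. They were taken from a list of 42 names, of which *Vimp* and *Selenos* are names of 1 gene. The list was made by function, though with earlier results of these data known. The count table held 56884 genes, and all 41 members were among the 13679 that passed the filter on low counts. The lowest count of a member in an IL-4/IL-13 library was 23 (*Derl3*). The members were 8 sensors and their processing proteases, 13 chaperones and cochaperones, 8 disulfide enzymes and 12 genes of ER-associated degradation (ERAD).

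Macrophages were grown with M-CSF from the marrow of wild-type 9-week-old female C57BL/6J mice, numbered 1, 2, 4 and 5, and every mouse was used for all 6 conditions, which made 24 libraries. Naive macrophages received no cytokine for 24 h, and the other 5 groups received IL-4 and IL-13, each at 20 ng/ml, for 24 h. In 4 of these, an inhibitor was given 1 h before the cytokines: tunicamycin at 5 µg/ml, which blocks N-linked glycosylation; Sal003 at 10 µM, which blocks dephosphorylation of eIF2α; or oligomycin at 1 µM, an ATP synthase inhibitor, in the remaining pair of groups. After that hour the medium was changed, and the inhibitor was present together with the cytokines for the 24 h. ISRIB at 1 µM, which counters the effects of eIF2α phosphorylation, was added in 1 of the 2 oligomycin groups, but the labels disagree on which. In oligomycin set A the title and treatment label name ISRIB and the library name (Oligo) does not, and in oligomycin set B the library name (Oli_ISR) names ISRIB and the title does not. No reading was chosen. The libraries are of cultured cells from 4 mice, and every inhibitor group also carried both cytokines.

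Unfolded proteins in the ER lumen are sensed by IRE1, ATF6 and PERK. IRE1 (gene *Ern1*) splices the *Xbp1* mRNA, ATF6 is cut in the Golgi by the site-1 and site-2 proteases (*Mbtps1*, *Mbtps2*) to release a transcription factor, and PERK phosphorylates eIF2α, which favors translation of ATF4. XBP1 and ATF6 act through the ER stress response elements of chaperone and ERAD promoters, and folding capacity and the disposal of misfolded protein can then rise together. Cells that secrete much protein use the same circuit without any toxin.

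The counts of all genes per library ranged from 16238727 to 26725278, and expression is given as CPM (counts scaled to the normalized size of the library) with its SD over 4 mice. All 8 macrophage markers were detected in every library, with summed CPM from 8782 to 36950 over all groups, 11426 to 13836 with IL-4/IL-13 and 16442 to 18062 with added tunicamycin. Markers of other cell types were low and also moved with the groups, and their sums in the other groups stand beside those comparisons. The 7 neutrophil and progenitor markers summed to 17.5 to 33.6 CPM with IL-4/IL-13 and to 0.103 to 0.255 CPM with added tunicamycin, and the 6 plasma and B cell markers summed to 86.9 to 111 CPM and to 4.52 to 5.76 CPM, nearly all of it *Sdc1*. Among plasma cell markers, *Mzb1* had no count in any of the 24 libraries and *Jchain* at most 5. The 5 stromal markers summed to 16.4 to 86.7 CPM with IL-4/IL-13 and to 3.67 to 25.5 CPM with tunicamycin, the 5 dendritic markers to 9.11 to 9.83 and 1.59 to 2.29 CPM, and the 4 T cell markers, nearly all *Cd4*, to 1.66 to 2.58 and 1.12 to 1.53 CPM. Their part in this and the later comparisons was not tested. In such bulk samples, fewer cells of a type and less RNA per cell cannot be told apart.

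The promoters of 15 members held a match to ERSE, ERSE-II or the UPRE core, motifs read by factors of the unfolded protein response, and 9 are shown as examples, chosen after their values were seen because the results return to these genes. The promoters of *Canx*, *Dnajb11*, *Dnajc3*, *Pdia6*, *Syvn1* and *Ube2j1*, which also held a match, are not shown. Each line gives the 200 bases before the transcription start of the gene's canonical transcript, from the mouse genome GRCm39, 5′ to 3′ on the strand of the gene. Capitals mark the fixed letters of ERSE (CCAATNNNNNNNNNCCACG), ERSE-II (ATTGGNCCACG) and the core of the unfolded protein response element, UPRE (TGACGTG). A match on the opposite strand shows the reverse complement, such as CGTGG before ATTGG.
*Hspa5* (chr2:34661904-34662103, plus strand): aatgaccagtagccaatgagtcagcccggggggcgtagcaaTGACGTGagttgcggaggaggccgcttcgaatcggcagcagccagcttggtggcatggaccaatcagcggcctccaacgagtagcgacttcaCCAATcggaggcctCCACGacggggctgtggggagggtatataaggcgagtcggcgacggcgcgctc
*Hsp90b1* (chr10:86541379-86541578, minus strand): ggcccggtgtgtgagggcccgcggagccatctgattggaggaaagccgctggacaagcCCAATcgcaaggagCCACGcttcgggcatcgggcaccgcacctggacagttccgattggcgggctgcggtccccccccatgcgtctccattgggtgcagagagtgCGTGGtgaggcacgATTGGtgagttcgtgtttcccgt
*Hyou1* (chr9:44290573-44290772, plus strand): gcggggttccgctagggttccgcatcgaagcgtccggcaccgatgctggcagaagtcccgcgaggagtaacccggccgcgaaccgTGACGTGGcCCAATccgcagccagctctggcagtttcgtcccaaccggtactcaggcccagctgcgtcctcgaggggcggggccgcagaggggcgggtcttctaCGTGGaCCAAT
*Calr* (chr8:85573668-85573867, minus strand): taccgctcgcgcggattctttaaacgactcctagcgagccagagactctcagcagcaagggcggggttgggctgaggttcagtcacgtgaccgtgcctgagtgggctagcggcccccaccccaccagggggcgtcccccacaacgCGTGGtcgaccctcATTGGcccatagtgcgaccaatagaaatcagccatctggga
*Creld2* (chr15:88703613-88703812, plus strand): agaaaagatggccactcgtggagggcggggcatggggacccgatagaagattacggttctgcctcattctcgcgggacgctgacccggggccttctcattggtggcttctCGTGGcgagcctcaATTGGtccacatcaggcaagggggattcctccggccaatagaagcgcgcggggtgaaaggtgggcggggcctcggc
*Manf* (chr9:106769179-106769378, minus strand): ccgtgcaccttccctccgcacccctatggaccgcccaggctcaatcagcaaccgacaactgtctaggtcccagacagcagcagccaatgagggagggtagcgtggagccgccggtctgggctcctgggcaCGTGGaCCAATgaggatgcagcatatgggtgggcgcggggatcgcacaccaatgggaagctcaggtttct
*Ero1b* (chr13:12580516-12580715, plus strand): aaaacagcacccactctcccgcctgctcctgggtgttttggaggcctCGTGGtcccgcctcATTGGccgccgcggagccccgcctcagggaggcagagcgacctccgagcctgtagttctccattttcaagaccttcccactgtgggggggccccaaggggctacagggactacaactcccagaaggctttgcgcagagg
*Herpud1* (chr8:95112837-95113036, plus strand): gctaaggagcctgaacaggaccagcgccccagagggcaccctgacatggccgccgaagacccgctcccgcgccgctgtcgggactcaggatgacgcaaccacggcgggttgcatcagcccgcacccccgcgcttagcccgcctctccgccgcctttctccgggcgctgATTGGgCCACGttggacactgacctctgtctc
*Derl3* (chr10:75729038-75729237, plus strand): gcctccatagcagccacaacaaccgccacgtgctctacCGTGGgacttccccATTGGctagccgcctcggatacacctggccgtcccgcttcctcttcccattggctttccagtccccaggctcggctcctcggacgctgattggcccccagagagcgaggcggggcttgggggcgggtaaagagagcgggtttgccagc

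*Hspa5* carried an ERSE 67 bases before its start and a UPRE core at 159 bases. *Hsp90b1* held 2 ERSEs in opposite orientation, at 142 and 37 bases, and *Hyou1* 2 copies of ERSE-II, at 112 and 11 bases. In windows from 250 bases before to 50 bases after the start, searched on both strands, ERSE matched 10 of 41 members (24.4%) and 27 of 21667 promoters of protein-coding genes (0.125%). ERSE-II matched 4 members (9.76%) and 15 of all promoters (0.0692%). The UPRE core matched 3 members (7.32%) against 2.02% of all promoters. TGATGNAA, a core of the elements read by ATF4 and its partners, matched 1 member, *Herpud1* (2.44%), against 3.85% of all promoters. The first 3 motifs were not found in the windows of the 8 sensors and proteases. One UPRE core overlapped an ERSE-II, in *Hyou1*. A match describes letters in a window and does not show binding.

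The question of tunicamycin against IL-4/IL-13 alone was which parts of ER quality control moved when glycosylation was blocked in alternatively activated cells. All 41 members rose, against a background of 38.7% of tested genes called higher and 37.6% called lower. A rise of at least 2.5-fold was seen for 31 members, against 8.56% of tested genes, and a fall of that size for 0 members, against 14% of tested genes. The median change of the members was 1.84 on the log2 scale, and that of all genes 0.01. By role, the medians were 0.87 for the sensors and proteases, 2.5 for the chaperones, 2.14 for the disulfide enzymes and 1.90 for ERAD. For every member the 4 tunicamycin libraries lay above all 4 IL-4/IL-13 libraries in CPM. With all 41 called higher, none could be lower in the same fit, and DESeq2 called 0 members lower as well.

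**Figure D1:**
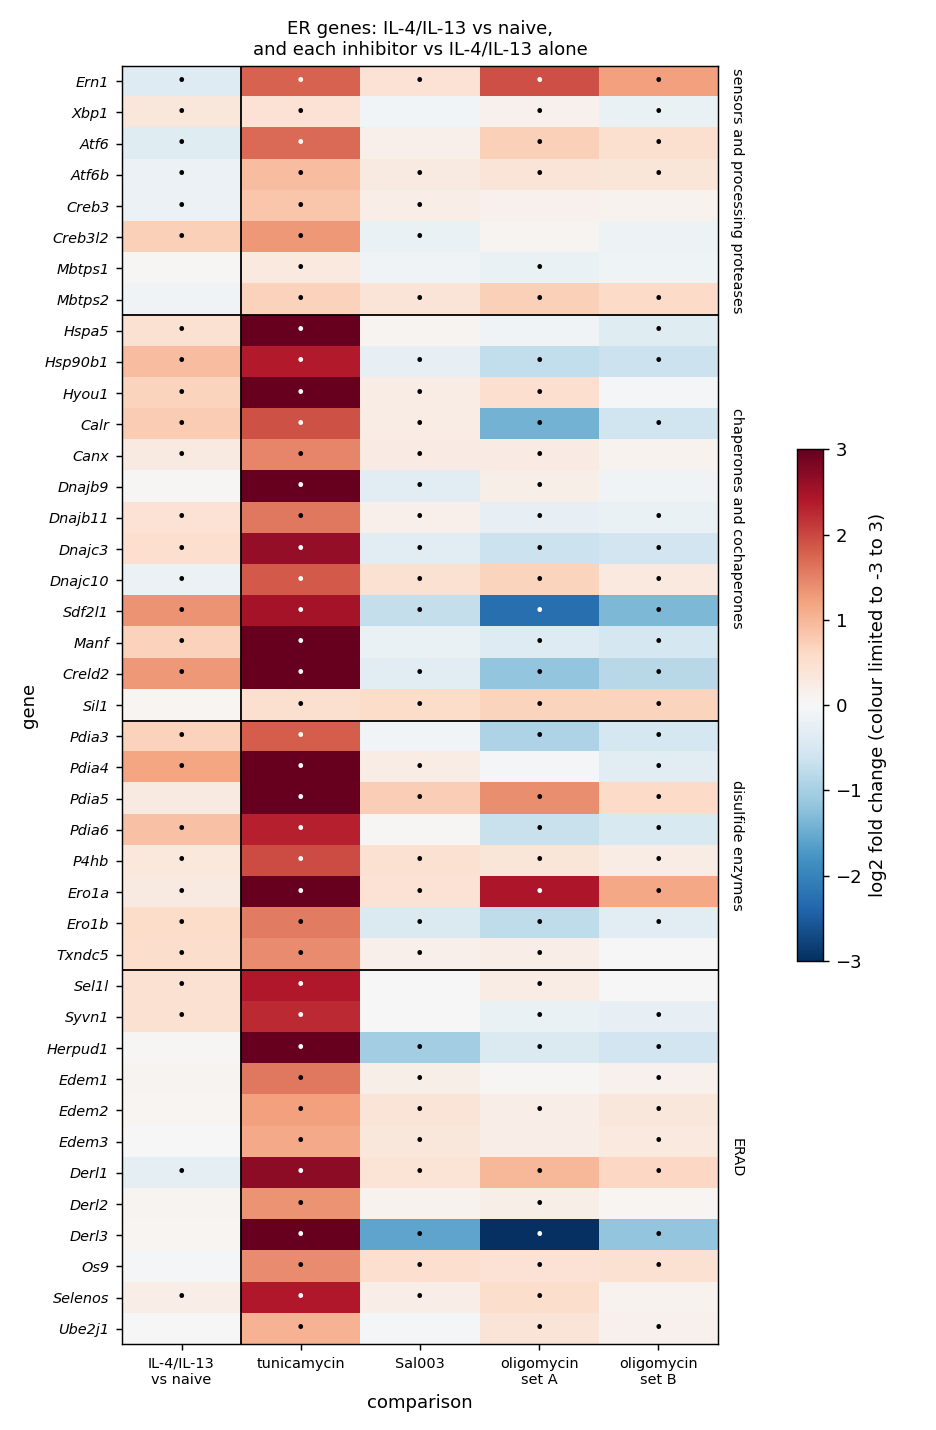
Heat map of the log2 fold change of the 41 ER genes (rows, grouped by role) in IL-4/IL-13 against naive macrophages and in each inhibitor group against IL-4/IL-13 alone (columns). Color gives the log2 fold change, limited to −3 to 3, and a dot marks an adjusted *P* under 0.05. The tunicamycin column is red throughout, with medians from 0.87 (sensors) to 2.5 (chaperones), and both oligomycin columns mix red and blue. The *Derl3* cell of set A is a fitted value for a gene near 0 counts.

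Among the sensors, *Ern1* (IRE1; ENSMUSG00000020715, chr11:106285476-106378678, minus strand, canonical transcript on GRCm39) changed most with tunicamycin. In mice 1, 2, 4 and 5, the order used throughout, its CPM was 77.3, 77.1, 84.6 and 79.9 with IL-4/IL-13 and 269, 271, 283 and 265 with added tunicamycin. The groups were far apart, and the log2 fold change was 1.77 ± 0.08 (SE; edgeR's quasi-likelihood test, Benjamini-Hochberg adjusted *P* = 1.5e-16). *Atf6* rose by a similar amount, from 106, 109, 128 and 114 CPM to 360, 374, 397 and 359 CPM, a log2 fold change of 1.70 ± 0.09 (adjusted *P* = 8.2e-15). *Xbp1*, which encodes the factor made after splicing by IRE1, rose less. Its CPM went from 212, 225, 220 and 211 to 290, 301, 292 and 300, all 4 above every IL-4/IL-13 library but only 1.36-fold higher on average (log2 fold change 0.45 ± 0.05, adjusted *P* = 4.6e-09). Counts per gene hold no information on spliced against unspliced *Xbp1*. *Creb3l2*, a membrane-bound factor of the ATF6 kind, rose from 33.9 ± 0.561 to 83 ± 3.93 CPM (log2 fold change 1.29), and *Atf6b*, the ATF6 paralog, by 0.92 on the log2 scale. The proteases rose by 0.29 (*Mbtps1*) and 0.70 (*Mbtps2*). *Creb3* rose by 0.82, but 68.9% of its transcript is overlapped by *Gba2* and *Tln1* on the opposite strand, and with the strand setting of the counting unknown its reads cannot be separated from theirs.

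**Figure D2:**
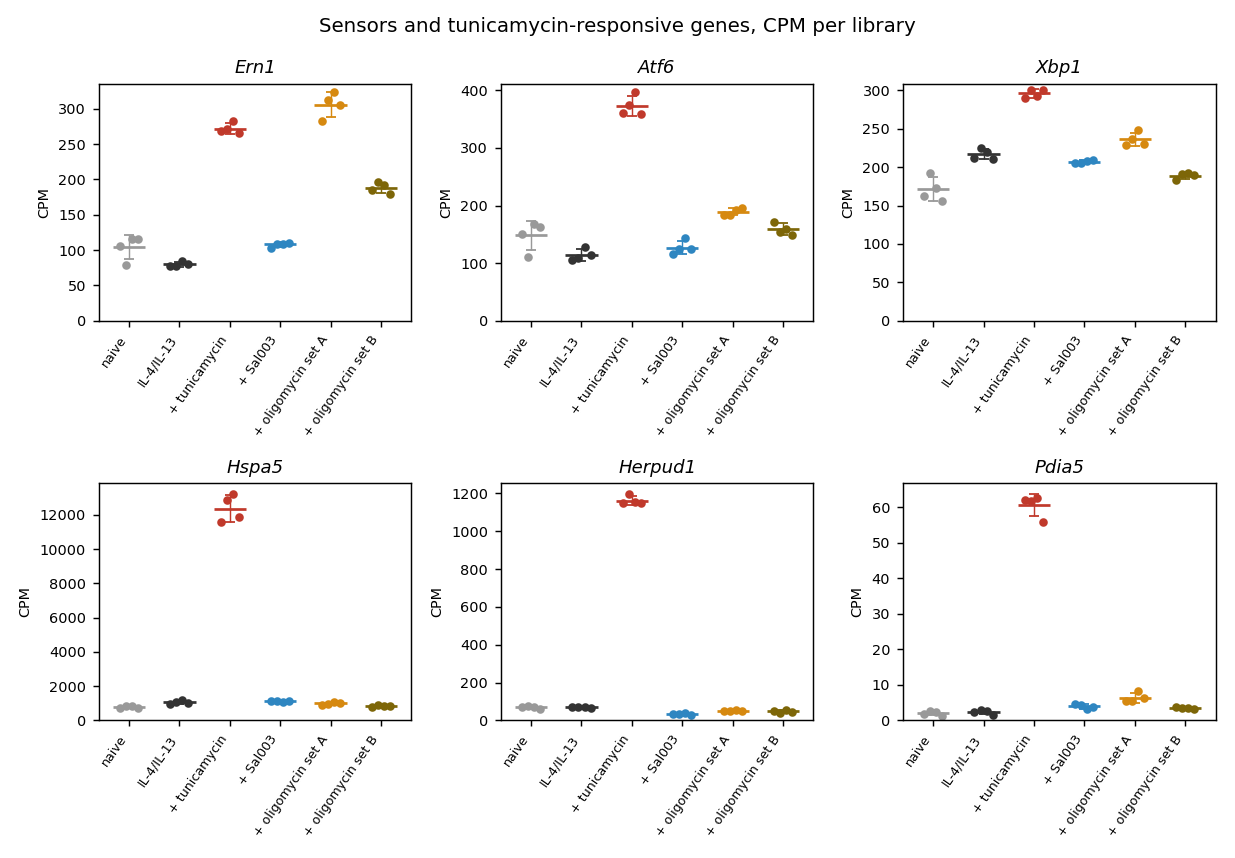
CPM of 3 sensor genes and 3 genes with large rises under tunicamycin, 1 point per library, with the group mean as a line and the SD as a bar (4 mice per group, linear axes from 0). *Ern1* was high with tunicamycin (mean 272) and with oligomycin set A (306), whereas *Hspa5*, *Herpud1* and *Pdia5* were high with tunicamycin alone, and *Xbp1* spanned a narrow range of group means, 171 to 296.

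The chaperones had the highest levels and the highest median change. *Hspa5* (BiP; ENSMUSG00000026864, chr2:34662104-34668880, plus strand), the ER HSP70 that also holds the sensors inactive, stood at 986, 1090, 1196 and 1021 CPM with IL-4/IL-13 and at 11562, 12836, 13209 and 11861 CPM with tunicamycin. This was 11.5-fold higher (log2 fold change 3.53 ± 0.07, adjusted *P* = 5.4e-23). On the opposite strand *Rabepk* overlaps 26.5% of the *Hspa5* transcript. By sequence, 44.6% of the *Hspa5* transcript is nearly identical to *Rabepk* transcripts, which leaves a part of its count uncertain. *Hyou1*, a large HSP70-like chaperone and exchange factor for BiP, rose by 3.71 ± 0.07, from a mean of 175 to 2287 CPM. *Dnajb9* (ERdj4), a J-domain cochaperone that delivers clients to BiP and keeps IRE1 in check, rose by 3.67 ± 0.06. Its libraries lay between 47.5 and 50.2 CPM with IL-4/IL-13 and between 606 and 648 CPM with tunicamycin. *Creld2*, a secreted ER stress protein with disulfide isomerase activity, rose by 3.29 ± 0.07, *Manf*, an ER-resident cofactor of BiP that is also secreted, by 3.13 ± 0.09, and *Sdf2l1*, part of an ER chaperone complex, by 2.5 ± 0.08. *Hsp90b1* (GRP94, the ER HSP90) rose by 2.38, *Dnajc3* (p58IPK) by 2.65 and the lectin chaperones *Calr* and *Canx* by 1.92 and 1.45. *Sil1*, a second exchange factor for BiP, changed least among the chaperones, by 0.47, and was the 1 chaperone under 2.5-fold.

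All 8 disulfide enzymes rose at least 2.5-fold. *Pdia5* was nearly silent before tunicamycin, at 2.34, 2.82, 2.74 and 1.58 CPM with IL-4/IL-13, from 26 to 56 counts per library. It reached 62, 61.7, 62.6 and 56 CPM (log2 fold change 4.66 ± 0.15, adjusted *P* = 1.3e-19), the largest change of the class. *Pdia4*, a multidomain disulfide isomerase, rose by 3.03 ± 0.06, from 207 ± 16.3 to 1694 ± 101 CPM. The oxidases that recharge the isomerases with disulfide bonds were unequal. *Ero1a* (ENSMUSG00000021831, chr14:45520541-45556036, minus strand) rose 14.8-fold, from 33.5, 30.9, 36.4 and 30 CPM to 466, 495, 496 and 474 CPM (log2 fold change 3.88 ± 0.10, adjusted *P* = 3.4e-21). *Ero1b* (ENSMUSG00000057069, chr13:12580716-12624417, plus strand) rose 2.94-fold, from 52.4, 53.6, 59.8 and 51.6 CPM to 160, 164, 164 and 152 CPM (log2 fold change 1.56 ± 0.07, adjusted *P* = 2.5e-16). The order of the pair turned. Per transcript length (TPM), *Ero1b* had a mean of 32.6 and *Ero1a* of 19 with IL-4/IL-13, and *Ero1b* had 104 and *Ero1a* 303 with tunicamycin. A part of *Ero1b*, 21.5% of its transcript, is nearly identical to *Gm18562*, so its count may hold or lose reads there.

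In ERAD, misfolded glycoproteins are picked by mannosidase-like EDEM proteins and lectins, moved to a membrane complex of SEL1L, the ligase HRD1 (*Syvn1*), derlins and HERP (*Herpud1*), and ubiquitinated. *Herpud1* went from 70.8, 72.1, 70.1 and 67.9 CPM to 1148, 1195, 1154 and 1147 CPM with tunicamycin, a 16.5-fold rise (log2 fold change 4.05 ± 0.08, adjusted *P* = 1.2e-23). The 3 derlins, channel-like proteins of the exit from the ER, differed widely. *Derl1* rose from 137 ± 5.64 to 880 ± 9.75 CPM (log2 fold change 2.68 ± 0.05) and *Derl2* from 89.3 ± 2.26 to 228 ± 5.56 CPM (1.35 ± 0.05). *Derl3* (ENSMUSG00000009092, chr10:75729238-75731775, plus strand) was barely present with IL-4/IL-13, at 1.56, 1.71, 1.47 and 1.4 CPM, from 23 to 34 counts per library, and stood at 183, 186, 204 and 180 CPM with tunicamycin. Its log2 fold change of 6.93 ± 0.20 (122-fold, adjusted *P* = 3.5e-20) was the largest of all members. The EDEM genes rose together and by similar amounts, *Edem1* by 1.57 ± 0.06, *Edem2* by 1.22 ± 0.05 and *Edem3* by 1.13 ± 0.11. *Sel1l*, *Syvn1* and *Selenos*, which recruits the p97 ATPase to the membrane, rose by 2.39, 2.24 and 2.41, and *Os9*, a lectin of the complex, by 1.41. *Ube2j1*, a ubiquitin-conjugating enzyme of the pathway, rose by 1.05.

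Summed over the 41 genes, the share of all transcripts (from TPM computed per library from counts and canonical transcript length) was 0.842% ± 0.0382 with IL-4/IL-13 and 4.44% ± 0.166 with tunicamycin, and the 4 libraries of each group lay from 0.81% to 0.897% and from 4.28% to 4.65%. The 13 chaperones took 3.09% of the transcripts with tunicamycin, the disulfide enzymes 0.709%, ERAD 0.535% and the sensors 0.114%. Per length, *Calr* led the members before and after tunicamycin (2178 and 8857 TPM). *Hspa5* moved from the fourth to the second place, and *Derl3*, last of the 41 with IL-4/IL-13, left the last place to *Creb3l2* (31.8 TPM).

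**Figure D3:**
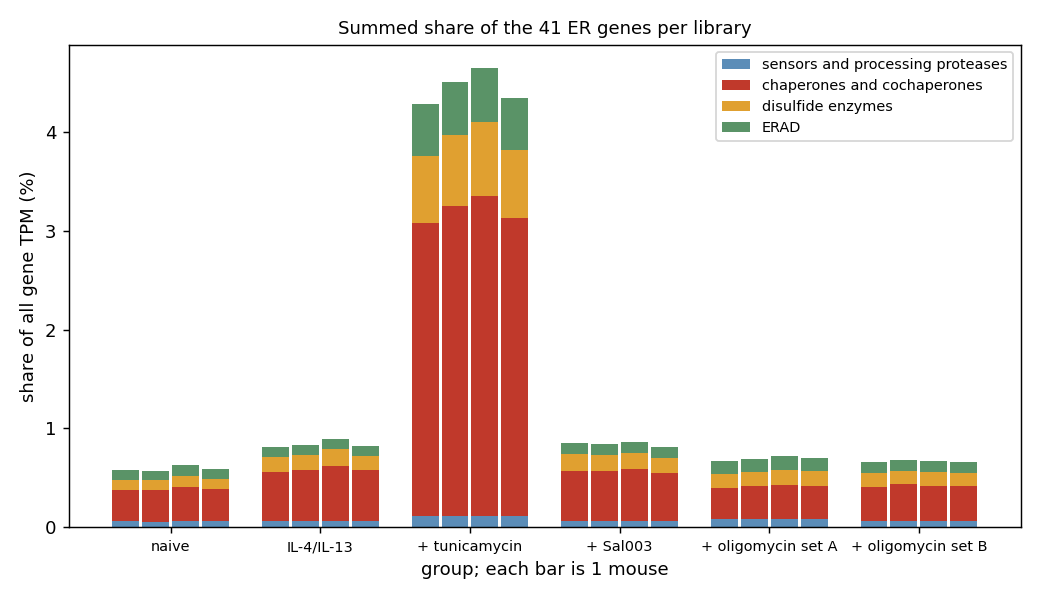
Summed share of all gene TPM (in %) of the 41 ER genes, stacked by role, with 1 bar per library (4 mice in each of 6 groups). The tunicamycin bars reach 4.28% to 4.65% and those of the other groups 0.575% to 0.897%, with chaperones as the largest part of every bar.

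Neighboring pathways were read in the same fit, from lists chosen by function with earlier results of these data known. In that fit 38.7% of all tested genes were called higher and 37.6% lower with tunicamycin. Of 5 genes of the PERK arm, all 5 rose with tunicamycin (median log2 fold change 3.24, against 0.01 for all genes): *Atf4* by 3.01, from 136 to 1094 CPM, the pseudokinase *Trib3* by 7.87, from 3.55 to 835 CPM, and the PERK gene *Eif2ak3* by 0.55. *Ddit3* (CHOP) rose by 4.21, though its symbol stands for 2 gene models in the annotation, which makes its count uncertain. Of 37 further genes of ER folding and ERAD, 30 rose and 5 fell (median 0.63), with *Fkbp11*, an ER prolyl isomerase, up by 5.49 and *Hspa13* up by 2.83, but *Txndc16* down (−1.17) and *Marchf6*, an ER ubiquitin ligase, down (−1.14). Of 37 tested genes of N-glycosylation, the process that tunicamycin blocks, 29 rose and 5 fell (median 0.95). *Dpagt1*, the enzyme that tunicamycin inhibits, rose by 1.70, from 57 ± 2.59 to 185 ± 5.2 CPM. *Krtcap2* and *Ostc*, subunits of the oligosaccharyltransferase, rose by 2.61 and 2.22, and *Tusc3*, a subunit as well, fell (−0.93). Of 12 tested cytosolic heat shock genes 9 fell, against the background of 37.6% (median −0.35), among them *Hspa1b* (−3.03) and *Hspa1a* (−2.86), near-identical neighbors whose reads may be split between them. None was called higher, also at an unadjusted *P* under 0.05 (0 genes) and with DESeq2 (0 genes).

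Alternative activation alone also moved the ER genes, in smaller steps. With IL-4/IL-13 against naive macrophages 22 members rose (53.7%) and 6 fell (14.6%), against a background of 30.1% higher and 30.4% lower. The rises lay in the folding machinery, with 10 of 13 chaperones and 7 of 8 disulfide enzymes higher, while 3 of 12 ERAD genes rose and 1 fell. Of the sensors and proteases 2 rose, *Xbp1* and *Creb3l2*, and 4 fell. *Sdf2l1* (ENSMUSG00000022769, chr16:16948002-16950252, minus strand) changed most. Its CPM was 82.1, 106, 82 and 72.1 in naive and 214, 218, 223 and 212 in IL-4/IL-13 macrophages, a clear separation (log2 fold change 1.34 ± 0.08, adjusted *P* = 7.2e-14), and it was the 1 member past 2.5-fold (5.39% of tested genes were that much higher and 6.08% that much lower). *Creld2* rose by 1.31 ± 0.07, from 23.8, 33.4, 26.6 and 25.3 to 65.4, 69.8, 70.6 and 63.5 CPM, and *Pdia4* by 1.18 ± 0.06, from means of 91.6 to 207 CPM. *Hsp90b1*, *Pdia6* and *Calr* rose by 0.93, 0.87 and 0.76, and *Hspa5* by 0.46.

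*Creb3l2* rose by 0.70 ± 0.07 and *Xbp1* by 0.35 ± 0.05 with the cytokines. *Ern1* and *Atf6* fell, by 0.38 and 0.37 on the log2 scale, but their naive libraries ranged from 78.9 to 116 CPM and from 111 to 168 CPM, which reached into the range of the IL-4/IL-13 libraries. *Derl1* fell by 0.30. The falls of *Creb3* (−0.18) and *Dnajc10* (−0.19) lost their calls without mouse 1 (adjusted *P* = 0.088 and 0.19), and without mouse 2 as well (0.21 and 0.051). Without mouse 4 *Creb3* was not called (0.061), and without mouse 5 *Dnajc10* was not (0.11). Several members with large folds under tunicamycin did not pass the test here. *Herpud1* had a mean of 68.9 CPM without and 70.2 CPM with the cytokines (adjusted *P* = 0.74), *Dnajb9* 47.5 and 48.7 CPM (0.57), *Derl3* 1.47 and 1.54 CPM (0.88) and *Pdia5* 2 and 2.37 CPM (0.26). *Ero1a* was called higher (log2 fold change 0.28, adjusted *P* = 0.02) with overlapping libraries, and lost the call without mouse 1 (adjusted *P* = 0.12) or mouse 2 (0.11). The comparison with naive cells and those with the inhibitors all use the same 4 IL-4/IL-13 libraries. Marker sums moved as well. From naive to IL-4/IL-13 macrophages, the macrophage markers went from 31093 to 36950 CPM down to 11426 to 13836 CPM. The T cell markers went from 10.1 to 13.6 CPM down to 1.66 to 2.58 CPM, and the plasma and B cell markers from 53 to 70.1 CPM up to 86.9 to 111 CPM. Those of neutrophils and progenitors (30.5 to 57.4 CPM in naive cells), dendritic cells (6.76 to 11.1) and stroma (19.3 to 138) overlapped between the groups.

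Sal003 changed the members in small steps. It raised 21 members (51.2%) and lowered 9 (22%), against a background of 25.9% higher and 24.6% lower. Past 2.5-fold was 1 member (*Derl3*, on the low side, as were 5.04% of tested genes, with 2.68% on the high side). *Herpud1* was at 32.8, 33.9, 38.6 and 31.1 CPM, below every IL-4/IL-13 library and 2.06-fold lower on average (log2 fold change −1.04 ± 0.08, adjusted *P* = 2.1e-11). *Sdf2l1* fell as well, to 139, 132, 138 and 118 CPM (−0.72 ± 0.07, adjusted *P* = 1.2e-08), as did *Ero1b* (−0.43), *Dnajb9* (−0.34), *Dnajc3* (−0.32) and *Creld2* (−0.31). *Derl3* was lower at 0.467, 0.733, 0 and 0.824 CPM, at most 16 counts per library (log2 fold change −1.58 ± 0.46, adjusted *P* = 0.0056). Rises were modest: *Pdia5* by 0.74, *Sil1* by 0.56, *Os9* by 0.51, *Dnajc10*, a J-domain reductase, by 0.45, *P4hb* (protein disulfide isomerase) by 0.45, *Ero1a* by 0.44, *Ern1* by 0.43 and *Derl1* by 0.40. *Hspa5* was not called, at 1073 ± 92.6 CPM without and 1130 ± 18.6 CPM with Sal003 (log2 fold change 0.07, adjusted *P* = 0.37). Some weak results changed with the fit. The fall of *Creb3l2* (−0.19) was lost without mouse 1 (adjusted *P* = 0.085) or mouse 5 (0.15), and *Manf* (−0.20, adjusted *P* = 0.056) was called lower only with the mouse as a block (0.041). With Sal003 the neutrophil and progenitor markers summed to 4.2 to 7.47 CPM and the dendritic markers to 2.75 to 3.96 CPM, both below the IL-4/IL-13 libraries, and the other 4 marker sums overlapped with theirs.

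With oligomycin the members went both ways, as the tested genes did. In set A 21 rose (51.2%) and 14 fell (34.1%), against a background of 34% and 32.2%, so the share that fell was near the background. In set B 15 rose (36.6%) and 16 fell (39%), against 27.9% and 26.4%. Chaperones fell more than they rose, with 5 up and 7 down in set A and 2 up and 8 down in set B. Past 2.5-fold in set A were *Ern1*, *Ero1a* and *Pdia5* on the high side and *Sdf2l1*, *Calr* and *Derl3* on the low side, against 4.79% and 7.96% of tested genes. In set B *Sdf2l1* alone passed, on the low side (5.02% of tested genes, with 2.94% on the high side). Both sets are compared with the same 4 IL-4/IL-13 libraries. In set A the macrophage markers summed to 8782 to 9611 CPM, those of neutrophils and progenitors to 2.15 to 3.72, of dendritic cells to 1.88 to 3 and of plasma and B cells to 49.5 to 65.1 CPM, all below the IL-4/IL-13 libraries. In set B the dendritic markers were lower, at 2.22 to 4.57 CPM, and the plasma and B cell markers higher, at 117 to 154 CPM. The macrophage markers (13445 to 15349 CPM) and those of neutrophils and progenitors (14 to 19 CPM) overlapped there with IL-4/IL-13 alone, as did T cell and stromal markers in both sets.

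*Ern1* reached 282, 312, 323 and 306 CPM in set A, and in set B it reached 185, 196, 192 and 180 CPM, all above the highest IL-4/IL-13 library of 84.6 CPM. The log2 fold changes were 1.94 ± 0.08 (adjusted *P* = 8.6e-17) and 1.24 ± 0.08 (1.1e-12). *Ern1* and *Mbtps2* were the 2 members with no call between tunicamycin and set A. For *Ern1* tunicamycin against set A gave −0.17 ± 0.07 on the log2 scale with overlapping libraries (adjusted *P* = 0.052, and 0.033 with the mouse as a block). *Atf6* rose by 0.72 ± 0.09 (set A) and 0.47 ± 0.09 (set B), and *Mbtps2* by 0.70 and 0.58. *Xbp1* was higher in set A (log2 fold change 0.12, adjusted *P* = 0.028), a call lost without mouse 1 (adjusted *P* = 0.11), mouse 4 (0.14) or mouse 5 (0.11), and lower in set B (log2 fold change −0.20 ± 0.05, adjusted *P* = 0.0008).

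*Ero1a* and *Ero1b* went opposite ways. For *Ero1a*, set A gave 173, 168, 197 and 164 CPM and set B gave 77.1, 69.5, 84.7 and 62.3 CPM, against 30 to 36.4 CPM with IL-4/IL-13 alone. Its log2 fold changes were 2.42 ± 0.10 (adjusted *P* = 7.2e-17) and 1.16 ± 0.10 (2.1e-10). For *Ero1b*, set A gave 30.6, 32.3, 34.3 and 30.3 CPM and set B gave 45.8, 39.1, 51.2 and 39.7 CPM, below the lowest IL-4/IL-13 library of 51.6 CPM in all 8 libraries. Here the log2 fold changes were −0.77 ± 0.07 (adjusted *P* = 1.3e-09) and −0.31 ± 0.07 (0.00077). *Pdia5* rose in set A to 6.35 ± 1.3 CPM (log2 fold change 1.40 ± 0.17) and in set B to 3.55 ± 0.204 CPM (0.56 ± 0.18, lost without mouse 1, adjusted *P* = 0.079, or mouse 5, 0.058). *Pdia3* and *Pdia6*, isomerases with ample transcripts, fell in both. Their log2 fold changes were −0.92 and −0.66 in set A and −0.52 and −0.46 in set B. Of the *Pdia3* transcript 27.2% is nearly identical to *Catsper2*, *Ell3* and *Serinc4*, and 11.3% of that of *Pdia6* to *Atp6v1c2*. A part of their counts is therefore uncertain, as for *Hsp90b1* (19.2%) and *Syvn1* (16.4%) among other members.

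**Figure D4:**
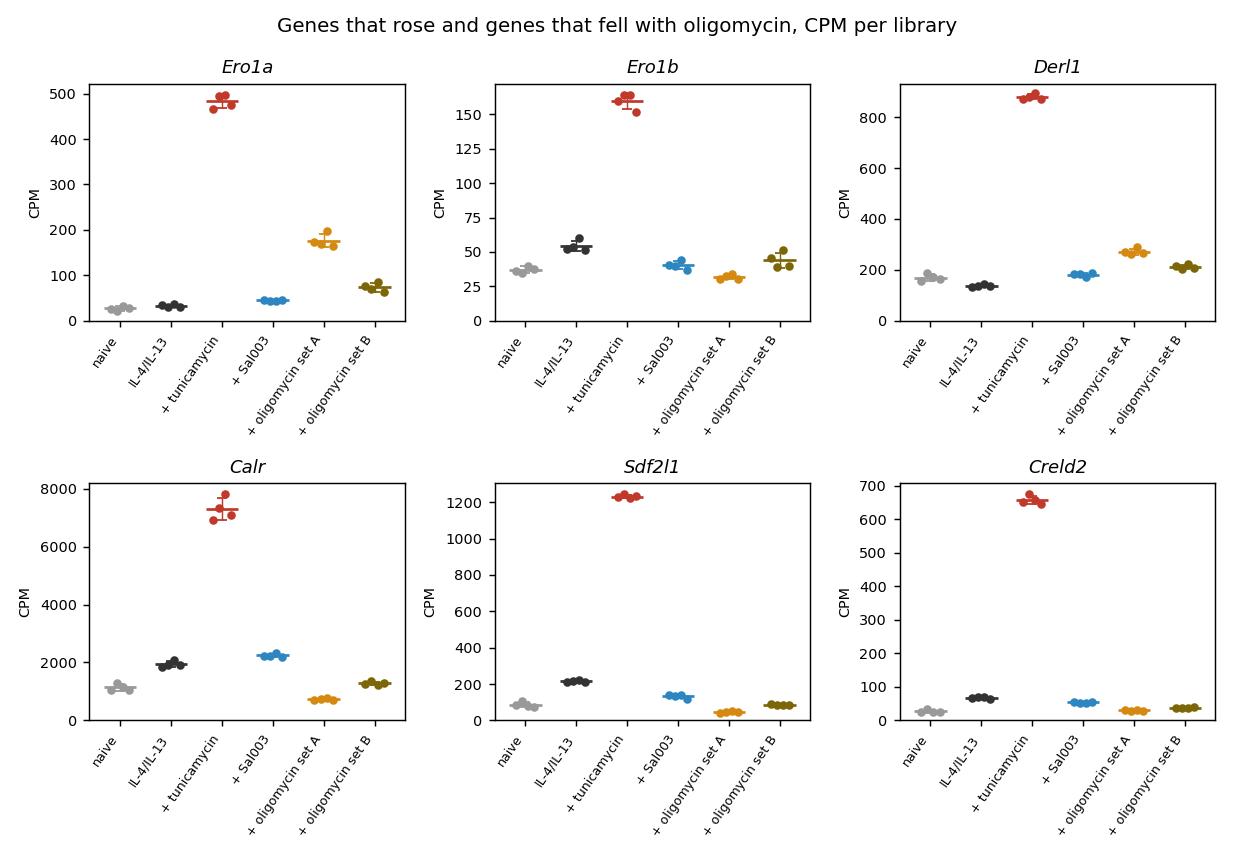
CPM per library of *Ero1a*, *Ero1b*, *Derl1*, *Calr*, *Sdf2l1* and *Creld2* in the 6 groups, with the mean as a line and the SD as a bar (4 mice per group, linear axes from 0). All 6 genes were highest with tunicamycin; with oligomycin set A, *Ero1a* (mean 176) and *Derl1* (272) lay above the IL-4/IL-13 group, and *Ero1b* (31.9), *Calr* (728), *Sdf2l1* (45.4) and *Creld2* (29.9) below it.

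*Sdf2l1*, *Calr* and *Creld2* had the deepest falls of the chaperones in set A. In set A *Sdf2l1* had 42.9, 45.2, 49.4 and 44 CPM, and in set B it had 88.3, 85.8, 82.7 and 85.2 CPM, down from 212 to 223 CPM with IL-4/IL-13 alone. All 8 libraries were under that range, with log2 fold changes of −2.26 ± 0.08 (adjusted *P* = 5.1e-18) and −1.34 ± 0.08 (1.7e-13). Naive macrophages held 72.1 to 106 CPM, a range that contains the libraries of set B and lies above those of set A. *Calr*, the lectin chaperone of the calnexin cycle, had 701, 723, 765 and 721 CPM in set A, whereas set B had 1260, 1347, 1219 and 1306 CPM, down from 1832 to 2078 CPM. It was 2.66-fold lower in set A (log2 fold change −1.41 ± 0.06, adjusted *P* = 1.6e-16) and 1.51-fold lower in set B (−0.59 ± 0.06, adjusted *P* = 3.7e-09). *Creld2* fell by 1.17 (set A) and 0.83 (set B), *Hsp90b1* by 0.74 and 0.65 and *Dnajc3* by 0.65 and 0.57. *Hspa5* was lower in set B (log2 fold change −0.37, adjusted *P* = 4.4e-05) and was not called in set A (−0.11 ± 0.07, adjusted *P* = 0.17). *Hyou1* rose in set A (0.50 ± 0.06) and did not pass the test in set B (−0.04, adjusted *P* = 0.63).

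In ERAD, set A raised *Derl1* to 272 ± 11.8 CPM and set B to 212 ± 8.56 CPM (log2 fold changes 0.99 ± 0.05 and 0.63 ± 0.05). *Herpud1* fell to 51.7 ± 3.75 and 47.5 ± 6.02 CPM (−0.44 ± 0.07 and −0.57 ± 0.07). Of the 12 ERAD genes 7 rose and 3 fell in set A (background 34% and 32.2%), and 6 rose and 3 fell in set B (27.9% and 26.4%). *Selenos*, *Os9*, *Ube2j1* and *Edem2* rose in set A, by 0.52, 0.43, 0.38 and 0.21. In set B *Os9* and *Edem2* rose by 0.45 and 0.35, and *Selenos* was not called. *Ube2j1* rose there by 0.12, a call lost without mouse 1 (adjusted *P* = 0.085) or mouse 5 (0.081). *Derl3* had 2 counts over the 4 libraries of set A, at 0.0473, 0.047, 0 and 0 CPM. With a floor of 3 counts per library, it was at least 10.4-fold lower than with IL-4/IL-13 alone and at least 1277-fold lower than with tunicamycin. In set B its libraries were at 0.217, 0.992, 0 and 1.24 CPM, a fall (log2 fold change −1.20 ± 0.42, adjusted *P* = 0.019) that was lost without mouse 1 (adjusted *P* = 0.14) or mouse 2 (0.053).

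Set A against set B is the comparison that differs in ISRIB whichever label holds. It called 17 members higher (41.5%) and 8 lower (19.5%), against a background of 19.9% and 21.3%. *Ero1a* differed most among the members with ample counts, 2.4-fold higher in set A (log2 difference 1.26 ± 0.09, adjusted *P* = 4.7e-11) with all 4 libraries above set B. *Pdia5* and *Ern1* were higher in set A by 0.84 and 0.70, and *Hyou1* by 0.54. *Sdf2l1*, *Calr* and *Ero1b* were lower in set A (log2 differences −0.91, −0.82 and −0.46), each with no overlap of libraries. *Derl3* was called lower in set A, though the libraries of the sets overlapped at 0 counts. It was the 1 member past 2.5-fold between the sets (1.14% of tested genes were that much higher in set A and 1.48% that much lower). Of the 5 genes listed as the PERK arm, set A had 4 higher and 1 lower beside set B. Against IL-4/IL-13 alone the same 4 rose and the same 1 fell in each set. Kinases other than PERK also phosphorylate eIF2α, and which kinase acted was not tested. *Atf4* had a mean of 704 ± 3.31 CPM in set A, 478 ± 20 CPM in set B and 136 CPM with IL-4/IL-13 alone. For *Trib3* the means were 542 ± 14.8, 146 ± 4.35 and 3.55 CPM, for *Ddit3* 226 ± 10.5, 123 ± 7.04 and 32.4 CPM, and for *Ppp1r15a*, a phosphatase subunit that reverses eIF2α phosphorylation, 184 ± 7.21, 63.3 ± 5.35 and 28.5 CPM. The PERK gene *Eif2ak3* ran the other way, at 22.7 ± 1.59, 31 ± 2.67 and 43.7 ± 3.6 CPM.

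The 4 inhibitor groups share the IL-4/IL-13 libraries, so their calls are set side by side only. With tunicamycin every member was higher, and 11 members were called higher with all 4 inhibitors, namely *Ern1*, *Atf6b*, *Mbtps2*, *Dnajc10*, *Sil1*, *P4hb*, *Pdia5*, *Ero1a*, *Derl1*, *Edem2* and *Os9*. Of all tested genes 12.8% had that pattern of calls, which are 1748 of the 5287 called higher with tunicamycin. Among those genes the pattern was no rarer than among the 41 members. Another 7 rose with tunicamycin and fell with the other 3, namely *Hsp90b1*, *Dnajc3*, *Sdf2l1*, *Creld2*, *Ero1b*, *Herpud1* and *Derl3*. That pattern held for 1.85% of tested genes, which are 253 of the 5287 called higher with tunicamycin. In 4 more, *Manf*, *Pdia3*, *Pdia6* and *Syvn1*, both oligomycin sets were lower and Sal003 was not called (0.673% of tested genes, 92 of those 5287).

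Tested directly against the other inhibitors, tunicamycin was higher for 38 members and lower for 1 against set A (background 31.4% and 32.1%), higher for 39 and lower for 1 against set B (35.4% and 35.7%), and higher for 40 and lower for none against Sal003 (35.9% and 36%; 0 lower also at an unadjusted *P* under 0.05 and with DESeq2). At least 2.5-fold higher with tunicamycin were 24 members against set A (5.64% of tested genes), 28 against set B (7.19%) and 28 against Sal003 (7.8%), and 0 members were that much lower in any of these (8.6%, 11.2% and 11.3% of tested genes). For Sal003 the remaining member was *Sil1*. In both oligomycin comparisons the member that was lower with tunicamycin was *Sil1* as well. Its mean was 26.8 CPM with IL-4/IL-13 alone and 37.2 CPM with tunicamycin. Sal003 gave 39.4, set A 42.5 and set B 42.9 CPM, so that the range across the 4 inhibitors was narrow. Its 2 calls against set A (log2 difference −0.19) and set B (−0.20) were lost without mouse 1 (adjusted *P* = 0.19 and 0.15) or mouse 5 (0.32 and 0.15).

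The sequences shown at the start can be read against these values. The 14 members with ERSE or ERSE-II had a median log2 fold change of 2.51 with tunicamycin (from 1.45 to 6.93), and the 27 with neither a median of 1.57 (from 0.29 to 4.66). With IL-4/IL-13 against naive the medians were 0.52 and 0.06, and 12 of 14 rose with a motif and 0 fell (0 at an unadjusted *P* under 0.05 and 0 with DESeq2), against 10 that rose and 6 that fell of 27 without. With Sal003 the order turned, with medians of −0.11 and 0.21. There 4 of the 14 rose and 6 fell, and 17 of the 27 others rose and 3 fell. With oligomycin the order was turned as well. In set A 2 of the 14 rose and 11 fell (median −0.55, and the same with *Derl3* at its bound), and of the 27 others 19 rose and 3 fell (median 0.22). In set B none of the 14 rose, also at an unadjusted *P* under 0.05 (0 members) and with DESeq2 (0 members), but *Canx* was called higher with the mouse as a block (adjusted *P* = 0.045). There 12 of the 14 fell (median −0.49), and 15 of the 27 rose and 4 fell (median 0.14). *Hsp90b1*, with 2 ERSEs, fell in both sets, and *Hyou1*, with 2 copies of ERSE-II, rose in set A. *Ern1*, *Ero1a*, *Pdia5* and *Derl1*, the members with the largest rises in set A, had neither motif in the window searched, nor did *Sdf2l1*, the member with ample counts that fell most. These differences between members with and without a motif were not tested. The motifs were spread unevenly over the roles, with ERSE in 6 of 13 chaperones and in 0 of 8 sensors and proteases. The medians with and without a motif therefore also compare roles.

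**Figure D5:**
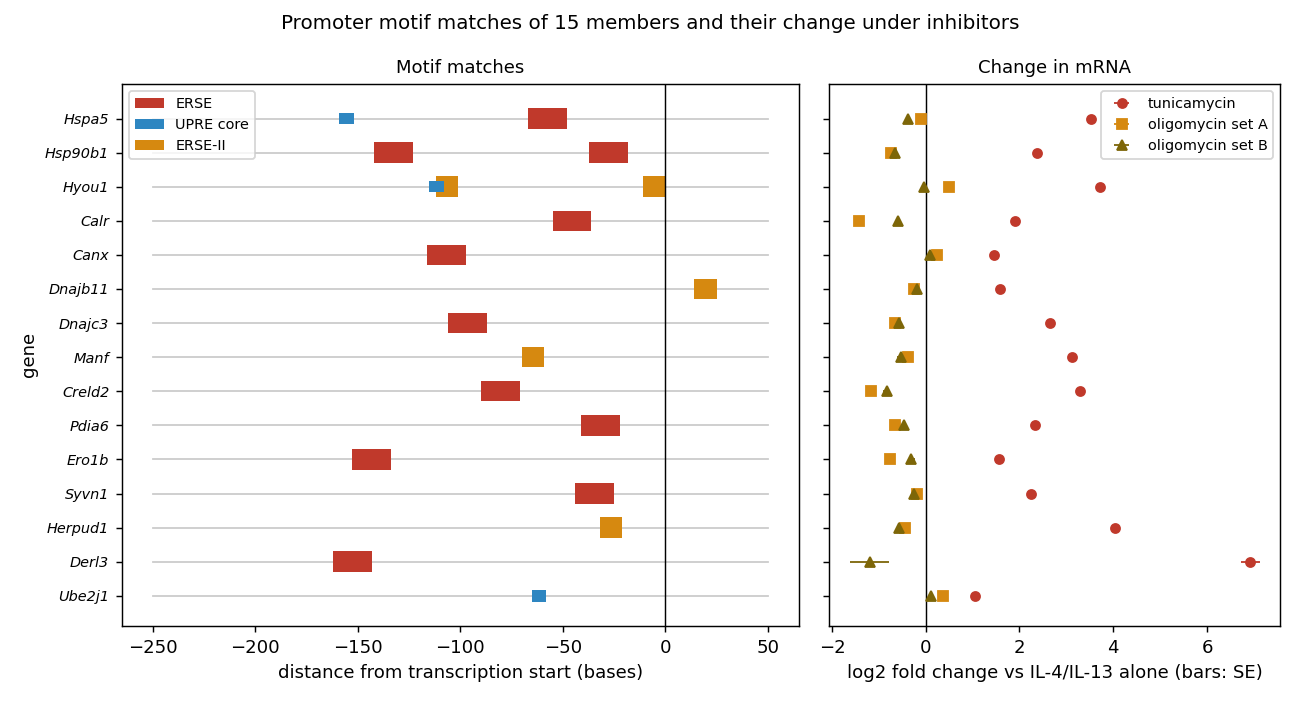
Left, matches of ERSE, ERSE-II and the UPRE core in 15 member promoters by distance in bases from the transcription start (black line at 0). Right, log2 fold change with SE of the same genes with tunicamycin and both oligomycin sets against IL-4/IL-13 alone, with *Derl3* in set A not drawn because it is at the floor. With tunicamycin all 15 lie right of 0, up to 6.93, and with oligomycin most lie at or left of 0.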

How the data were processed

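The members, gene lists and motifs were chosen with earlier results of these data known. RNA-seq of 24 libraries was read. Before deposit the authors used Cutadapt 1.8 for trimming, dropped reads of ribosomal RNA and of low complexity, and mapped the rest to GRCm39 with STAR 2.7. HTSeq 0.9.1 then gave raw counts per gene for 56884 genes, which were taken as deposited. Whether HTSeq used strand is not given in the sources used here. The 5 totals that name no gene took 12.74% to 15.231% of reads and were left out. A table of TPM from RSEM was not used, because its header has 28 names over 25 cells per line.

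Counts were tested with edgeR 4.0.16 (R 4.3.3): TMM normalization, filterByExpr by group, the quasi-likelihood test in 1 model over 6 groups of 4 mice, and Benjamini-Hochberg adjustment over 13679 genes. A gene was called at an adjusted p-value under 0.05. CPM use TMM library sizes. The SE of a log2 fold change was derived from the test, as its absolute value divided by the square root of the quasi-likelihood F statistic. Normalization, filter, block, samples, DESeq2 1.42.0 and the study's 2.5-fold threshold were varied. Counts were also simulated at mean levels over all libraries (13580 genes tested), with 50 genes changed at each size in the tunicamycin libraries. There the fit recovered 92% of genes lowered by 1 on the log2 scale and 100% of those raised by 1. It recovered 66% of those raised by 0.5 and made 10 false calls. The simulation had 1 spread for all genes, no mouse effect and few changed genes, so these rates do not describe the real comparison. Libraries of the same mouse deviated together (median correlation 0.236, over 0.1 in 56 of 60 pairs; −0.0543 for different mice). Libraries of a group differed by more than sampling noise (chi-square per gene 2.14 to 34.4). Named members were the sensors and paralogs *Ern1*, *Xbp1*, *Atf6*, *Hspa5*, *Ero1a*, *Ero1b*, the derlins and EDEM genes, and those with the largest called changes per comparison; other members were named by role after their values were seen. Annotation and promoters were read from GENCODE M39 on GRCm39, the latter around the start of each canonical transcript. The 9 comparisons share groups. The main model has no term for the mouse and treats the 24 libraries as independent, although each mouse gave all 6 conditions. Its p-values rest on the spread between the 4 libraries within groups, and the run with the mouse as a block is the alternative. Of 38 listed N-glycosylation genes 37 matched the table.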

Additional observations from a re-analysis of the deposited data

Results flagged for a closer look

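For the 20 members described in most detail, each group of 4 libraries was checked for a library far from the other 3, 120 groups in all. In 5 of them the gap to the nearest library, relative to the range of the group, passed Dixon's 95% critical value, where chance gives about 5% of groups. *Edem1* with IL-4/IL-13 stood at 325 CPM in mouse 4 and at 294 to 297 CPM in the others. *Edem2* in oligomycin set A stood at 89.1 CPM in mouse 4, against 84.7 to 85.4 CPM. *Dnajb9* in naive macrophages stood at 52.4 CPM in mouse 4, against 45.4 to 46.1 CPM. *Pdia5* with tunicamycin stood at 56 CPM in mouse 5, against 61.7 to 62.6 CPM. *Herpud1* with tunicamycin stood at 1195 CPM in mouse 2, against 1147 to 1154 CPM. Each of these gaps is small beside the changes with tunicamycin, and of the 5 groups 3 involve mouse 4. No cause was tested.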

How the results depend on the processing

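No called change of a member turned direction under any alternative run. With the replicate block (the mouse as a term), none of the calls over 41 members and 9 comparisons was lost and 10 were gained. Without mouse 1 and without mouse 5, 25 and 20 calls were lost, nearly all of weak changes. With at least 2.5-fold required, the members called higher numbered 1 for IL-4/IL-13 against naive, 0 for Sal003, 3 for oligomycin set A, 0 for set B, 0 for set A against set B and 24 for tunicamycin against set A, where 5.39%, 2.68%, 4.79%, 2.94%, 1.14% and 5.64% of tested genes were. Those called lower numbered 0, 1, 3, 1, 1 and 0, and 0 for tunicamycin against set B (6.08%, 5.04%, 7.96%, 5.02%, 1.48%, 8.6% and 11.2% of tested genes). With no filter on low counts, 3 members fell with IL-4/IL-13 against naive, and none was lower with tunicamycin against set A (0) or set B (0). The members lower with tunicamycin against set A numbered 2 with upper-quartile factors, with at least 10 counts in every library, with the replicate block and with the 2 groups alone. Leaving out each mouse, they ranged from 0 to 2 against set A and from 0 to 1 against set B. The filter of 10 counts removed *Derl3*, whose fitted values in set A rest on 2 counts and moved by up to 1.06 on the log2 scale without 1 mouse. The label conflict over ISRIB, the strand setting of the counting and the lack of splice-level counts for *Xbp1* limit what these values can say.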
